A study of Mus musculus with 40 samples.

Results

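The carboxylesterase genes examined here are 7 of the 14 carboxylesterase genes in a table of 15958 mouse genes: Ces2a, Ces2b, Ces2c, Ces2e, Ces1d, Ces1f and Ces1g. Ces2a was chosen by its measured level under the drug in duodenum and ileum. Its gut values are therefore a description, with no test of the drug or resection contrasts there. The other members were listed with earlier results of these data known. All 7 were measured in all 40 libraries, and all 7 passed the filter on low values in each tissue.

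The libraries come from wild-type male C57BL/6 mice that had surgery at 8 weeks of age. Sham vehicle mice had the bowel cut and rejoined and then received vehicle. Small bowel resection (SBR) vehicle mice lost 50 to 60% of the small bowel per the labels, and the study's own methods give a larger extent. SBR WUSTL0717 mice had the resection and, from 3 weeks after it, a daily oral dose of 30 mg/kg WUSTL0717 for 7 weeks, while the vehicle groups were dosed with vehicle over the same time. WUSTL0717 is an amide analog of the liver X receptor (LXR) agonist GW3965, made to stay in the gut. All mice were fed a liquid diet, and no sham mice received the drug, so a drug effect without resection was not measured. Duodenum and post-anastomotic ileum each gave 3 sham vehicle, 4 SBR vehicle and 4 SBR WUSTL0717 libraries, and liver gave 5, 8 and 5.

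Carboxylesterases are serine hydrolases of the endoplasmic reticulum lumen that cleave ester and amide bonds in drugs, and in acylglycerols and cholesteryl esters. Those of the Ces1 family are best known from liver, where Ces1d (also called triacylglycerol hydrolase) mobilizes stored triglyceride for lipoprotein assembly and Ces1g has been tied to hepatic lipid levels. Those of the Ces2 family are the main carboxylesterases of the small intestine, and Ces2c hydrolyses tri- and diacylglycerols. LXR is a sterol-sensing nuclear receptor that induces cholesterol efflux and fatty acid synthesis genes. The xenobiotic receptors PXR and CAR are known to raise several carboxylesterases together with cytochromes P450.

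The members lie in 2 clusters on chromosome 8 of GRCm38 (GENCODE M21 annotation). On the minus strand are Ces1d (chr8:93166068-93197838), Ces1f (chr8:93256236-93279747) and Ces1g (chr8:93302369-93337308). On the plus strand are Ces2a (chr8:104734003-104741634), Ces2b (chr8:104831572-104840093), Ces2c (chr8:104847068-104854483) and Ces2e (chr8:104926260-104934672). All are protein-coding. Coding sequences were 74.6 to 81.5% identical among the 3 Ces1 members, 82.6 to 92.1% among the 4 Ces2 members (highest for Ces2b with Ces2c), and 64.6 to 66.9% between the families. No pair of members shared an identical 150-base stretch of transcript. Of its stretches of that length, Ces2a shared 4.0% with the predicted gene Gm7208, and Ces2c shared 3.3% with the pseudogene Ces2d-ps. The authors kept only reads with a unique alignment and a single gene, so the values of Ces2a and Ces2c may miss reads from those stretches.

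So that the promoters of these neighbouring genes can be compared, the 250 bases upstream of the annotated start are shown for the 4 members that the RefSeq promoter table held (GRCm38.p6). They were searched for AGGTCA and AGTTCA, hexamers bound by nuclear receptors, on both strands, and for 2 such hexamers in the same direction 4 bases apart (DR4), the arrangement bound by LXR with its partner RXR. Capitals mark a match. The RefSeq start of Ces1g lies within its GENCODE span given above, so part of its window overlaps that span. The Ces2a window is chr8:104733753-104734002 on the plus strand, Ces2c chr8:104846818-104847067 on the plus strand, Ces2e chr8:104926010-104926259 on the plus strand, and Ces1g chr8:93337210-93337459 on the minus strand.
Ces2a: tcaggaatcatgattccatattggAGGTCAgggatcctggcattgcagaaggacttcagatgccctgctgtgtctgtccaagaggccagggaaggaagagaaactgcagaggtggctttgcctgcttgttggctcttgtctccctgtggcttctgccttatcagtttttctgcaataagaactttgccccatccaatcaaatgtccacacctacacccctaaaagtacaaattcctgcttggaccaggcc
Ces2c: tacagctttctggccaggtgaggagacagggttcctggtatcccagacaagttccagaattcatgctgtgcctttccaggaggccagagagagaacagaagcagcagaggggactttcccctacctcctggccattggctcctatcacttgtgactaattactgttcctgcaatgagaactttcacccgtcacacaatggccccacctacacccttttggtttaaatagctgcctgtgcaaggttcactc
Ces2e: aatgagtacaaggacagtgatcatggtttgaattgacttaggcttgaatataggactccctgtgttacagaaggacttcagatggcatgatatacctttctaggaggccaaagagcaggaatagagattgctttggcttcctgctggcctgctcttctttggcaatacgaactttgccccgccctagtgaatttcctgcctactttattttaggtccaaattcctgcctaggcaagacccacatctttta
Ces1g: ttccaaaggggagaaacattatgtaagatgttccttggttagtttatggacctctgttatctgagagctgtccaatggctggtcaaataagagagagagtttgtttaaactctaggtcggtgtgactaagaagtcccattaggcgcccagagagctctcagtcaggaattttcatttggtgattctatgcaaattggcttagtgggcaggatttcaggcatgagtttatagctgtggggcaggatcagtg
The Ces2a window held 1 AGGTCA, and no hexamer was found in the other windows. AGGTCA was present in 14.02% of the 32851 windows of that length in the table and AGTTCA in 11.84%. No DR4 was found in a member's window, and 8 windows of the table (0.02%) held one. Ces2a and Ces2e had the run cagaaggacttcagatg in common, at positions -205 and -183 from the start. A match of letters is not a binding site, and a window without one says nothing of the factor.

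The values are log2 TPM, a transcript abundance scaled for gene length and library total, that the authors adjusted with ComBat, with the intestine as 1 batch and the liver as the other. That adjustment left 99.4% of genes with gut and liver means within 1 log2 unit, so levels are compared only within the gut or within the liver, and never between genes. A floor can lie well above 0 on this scale: Ces3b, a carboxylesterase outside the members, had 2.91 as its lowest value in 5 of the 6 gut groups. Read depth is unknown. Median log2 TPM per library ran from 2.131 to 3.087 in duodenum, 3.181 to 3.824 in ileum and 3.051 to 3.773 in liver. Differences were tested with limma over the genes whose average log2 TPM in the tissue reached 1, and a gene was called at a Benjamini-Hochberg adjusted p under 0.05. Pancreatic acinar markers (9 genes, such as Cela1 and Prss2) averaged 1.74 to 7.54 in duodenal libraries against -0.65 to -0.54 in ileal ones. Hepatocyte markers averaged 8.05 in ileum SBR WUSTL0717 replicate 2 against 5.72 to 6.77 in the other ileal libraries. In liver, SBR vehicle replicate 7 had an acinar average of 7.4 against 2.06 to 2.26 elsewhere.

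Ces2a, which chose the list, was higher in every library of WUSTL0717-treated mice than in any other library of its gut region. In duodenum its log2 TPM was 3.14, 4.59 and 3.92 in the sham vehicle libraries, 4.24, 4.39, 4.06 and 4.44 in the SBR vehicle libraries, and 8.08, 7.51, 8.26 and 8.58 in the SBR WUSTL0717 libraries. The sham and SBR vehicle ranges overlapped, and the lowest treated library (7.51) stood above the highest of them (4.59). In ileum it was 5.52, 5.47 and 5.32 in sham vehicle, 5.81, 4.68, 5.34 and 5.41 in SBR vehicle, and 7.61, 7.95, 7.66 and 8.21 in SBR WUSTL0717. The ileal vehicle groups again overlapped. The treated minus vehicle difference was 3.83 ± 0.40 log2 units (SE) in duodenum, 14.2-fold, and 2.54 ± 0.28 in ileum, 5.83-fold. Resection with vehicle differed from sham by 0.40 ± 0.43 in duodenum and -0.12 ± 0.30 in ileum.

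Ordered by mean, Ces2a was lowest in duodenum sham (3.88 ± 0.73, SD), then duodenum SBR vehicle (4.28 ± 0.17), ileum SBR vehicle (5.31 ± 0.47), ileum sham (5.44 ± 0.11), ileum SBR WUSTL0717 (7.86 ± 0.28) and duodenum SBR WUSTL0717 (8.11 ± 0.45). The neighbours in that order whose libraries overlapped were the duodenal vehicle groups, the ileal vehicle groups and the treated groups of both regions. The duodenal groups that had no drug lay below the ileal ones without overlap, whereas the treated groups of the regions overlapped.

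**Figure D1:**
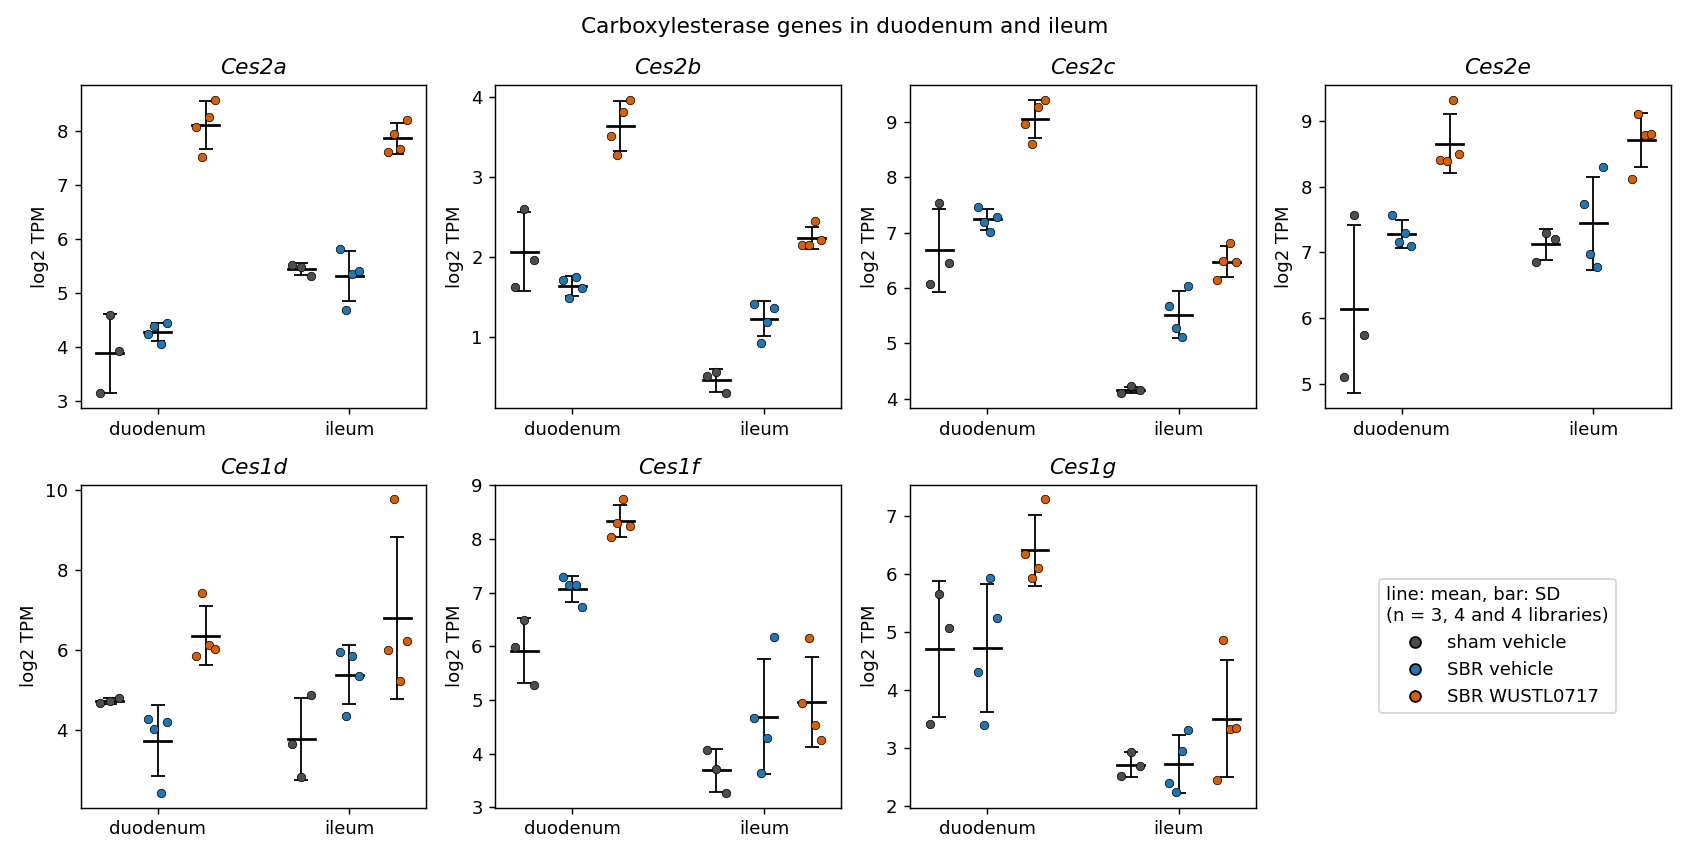
Log2 TPM of each member (vertical axis, a separate scale per gene) in duodenum and ileum, with 1 point per library, a line at the group mean and a bar of 1 SD (n = 3, 4 and 4 for sham vehicle, SBR vehicle and SBR WUSTL0717). Treated libraries sit above all vehicle libraries of their region for Ces2a, Ces2b and Ces2c, and a single treated ileal library reaches 9.76 for Ces1d.

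The other Ces2 genes were compared between treated and vehicle-treated resected mice in duodenum first. Ces2b was 1.72, 1.49, 1.75 and 1.61 in SBR vehicle and 3.51, 3.28, 3.82 and 3.97 in SBR WUSTL0717. Ces2c was 7.47, 7.19, 7.01 and 7.28 against 8.96, 8.60, 9.26 and 9.39. Ces2e was 7.57, 7.16, 7.30 and 7.09 against 8.40, 8.39, 9.32 and 8.50. In all 3 genes each treated library stood above each vehicle library. Ces2b rose by 2.00 ± 0.30 log2 units, 4.00-fold (limma adjusted p = 0.019). Ces2c differed by 1.82 ± 0.41 (adjusted p = 0.131) and Ces2e by 1.38 ± 0.51 (adjusted p = 0.700), and neither passed the test. Quantile normalization gave 0.80 for Ces2e. The Ces2b call was lost when any single SBR vehicle library, or treated replicate 3 or 4, was left out, with adjusted p of 0.0552 to 0.0938, and with the replicate block (0.102), the unmoderated two-sample test (0.0557) or a fit of the compared groups alone (0.0542). Ces2b lies low on the scale, and a pseudocount of 5 reduced its difference to 1.22 (adjusted p = 0.0199).

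Among the Ces1 genes, Ces1d was 4.28, 4.03, 2.43 and 4.21 in SBR vehicle duodenum and 5.85, 7.43, 6.12 and 6.02 in treated duodenum. Ces1f was 7.29, 7.14, 7.14 and 6.73 against 8.03, 8.30, 8.74 and 8.24. Ces1g was 4.31, 3.39, 5.94 and 5.25 against 6.34, 5.93, 6.10 and 7.29. Groups stood apart for Ces1d and Ces1f and touched for Ces1g, where 1 vehicle library (5.94) was just above the lowest treated one (5.93). The differences were 2.62 ± 0.49 for Ces1d (adjusted p = 0.0583), 1.25 ± 0.38 for Ces1f (0.435) and 1.69 ± 0.63 for Ces1g (0.701), none of which passed limma's test. Quantile normalization gave 0.74 for Ces1f. For Ces1d the adjusted p came under the threshold in 4 alternatives, among them a filter at a mean of 3 (0.0272) and a fit with no variance trend (0.0394).

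Of the 6 members that could be tested in this comparison 1 was called, where 0.258% of the 15093 duodenal genes were called. All treated libraries lay above all SBR vehicle libraries for 5 of the 6, against 2.11% of genes tested, and Ces2a is not counted because it was chosen for this contrast. The median difference of the 6 tested members was 1.75 log2 units against 0.04 over all genes. All 6 had an unadjusted p under 0.05, as did 802 of the 15093 genes tested. The exact permutation test over libraries gave p = 0.0286 for each of the 5 tested members whose groups stood apart, the smallest that 4 against 4 libraries allow, and an exact p of 0.0571 for Ces1g. Acinar markers in the duodenum stood at 1.74 to 6.78 in SBR vehicle and 4.42 to 7.54 in treated libraries, with 0 of 9 called. With their average as a covariate, a choice made after seeing the data, Ces2b differed by 2.05 (adjusted p = 0.117), no member was called, and Ces2a stayed at 3.82. Enterocyte markers averaged 5.23 to 5.87 and 5.31 to 5.70 in these groups, with 0 of 10 called. In bulk tissue, a change in the number of cells that make a transcript and a change in transcript per cell cannot be told apart.

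In ileum the same contrast gave smaller differences and no call. Ces2b was 1.41, 0.93, 1.19 and 1.37 in SBR vehicle and 2.15, 2.15, 2.45 and 2.21 in SBR WUSTL0717, a difference of 1.01 ± 0.20 (limma adjusted p = 0.205). Ces2c was 5.67, 5.27, 5.11 and 6.04 against 6.14, 6.49, 6.81 and 6.46, a difference of 0.95 ± 0.26 (adjusted p = 0.455). Both genes had groups that stood apart. Ces2e, at 7.73, 6.97, 6.77 and 8.30 against 8.12, 9.10, 8.78 and 8.80, differed by 1.26 ± 0.36 (adjusted p = 0.491) with groups that overlapped.

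None of the ileal Ces1 genes was called, and their differences moved with single libraries. Ces1d was 5.96, 4.35, 5.86 and 5.34 in SBR vehicle and 6.00, 9.76, 5.23 and 6.23 in SBR WUSTL0717. Ces1f was 4.66, 3.65, 4.29 and 6.18 against 4.94, 6.16, 4.54 and 4.25. Ces1g was 2.40, 2.23, 2.95 and 3.31 against 2.45, 4.87, 3.33 and 3.34. Treated replicate 2 was the highest treated library for all 3, and it is the library with the hepatocyte marker average of 8.05, in which albumin (Alb) reached 12.7. The part of that library in the result was not tested beyond leaving it out. Without it the difference went from 1.42 to 0.44 for Ces1d, from 0.28 to -0.12 for Ces1f and from 0.78 to 0.32 for Ces1g. Ces1f was also -0.07 without SBR vehicle replicate 2, and other single omissions took it as high as 0.77. The Ces2 differences without treated replicate 2 were 2.51 for Ces2a, 1.04 for Ces2b, 0.95 for Ces2c and 1.12 for Ces2e.

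In ileum 0 of the 6 tested members were called by limma, and the unmoderated two-sample test called 0, where limma called 0.0697% of 15772 genes. Ces2b, with group means of 0.46 in sham, 1.23 in SBR vehicle and 2.24 in treated ileum, passed the filter on low values through its treated libraries, so its ileal drug values are a description and are left out of the counts that follow. Of the 5 other tested members 2, Ces2c and Ces2e, had an unadjusted p under 0.05, as did 1083 of the 15772 genes. Treated libraries lay above all SBR vehicle libraries for 1 of the 5, Ces2c, against 2.56% of genes tested.

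**Figure D2:**
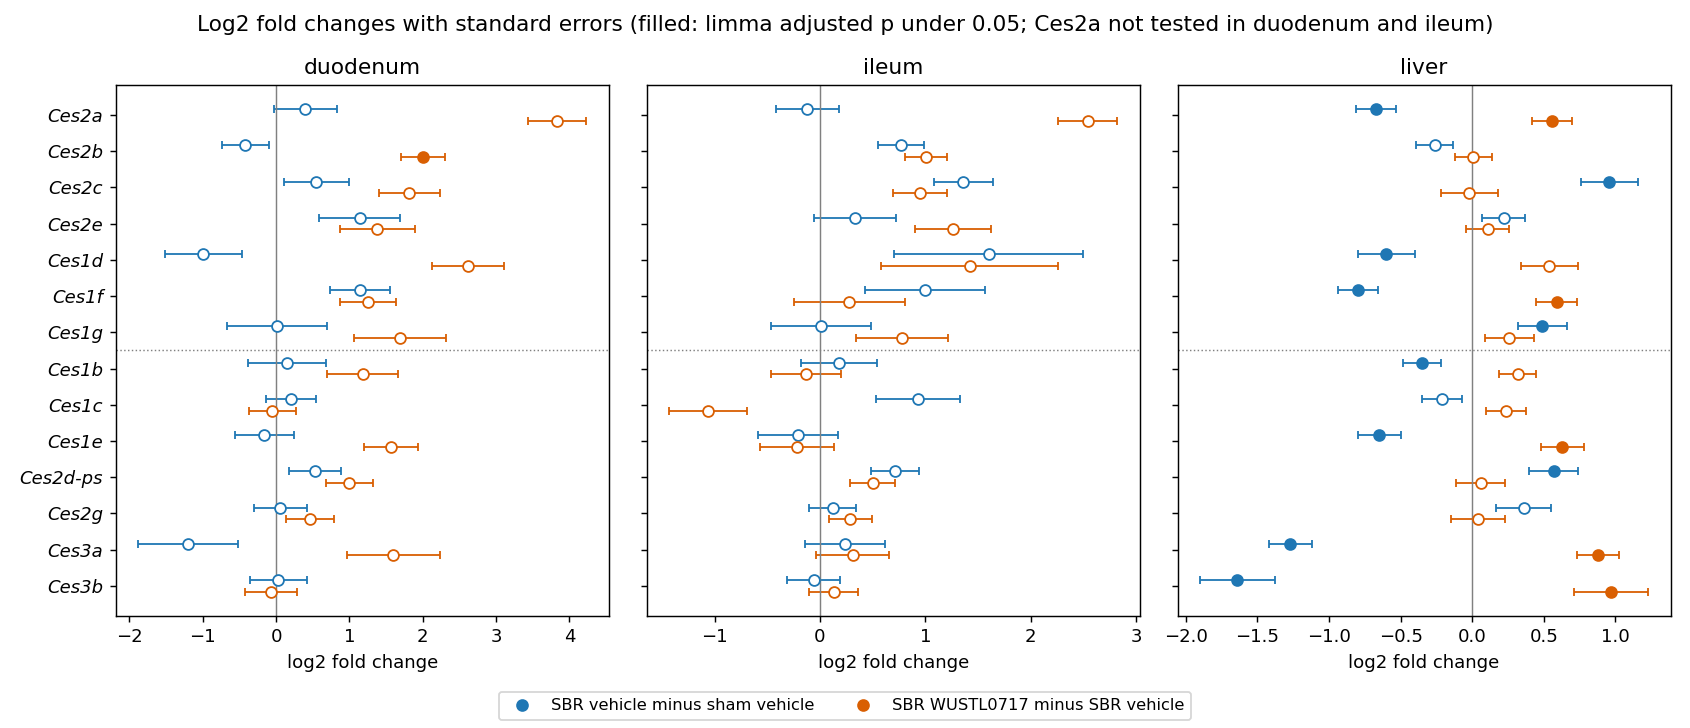
Log2 fold changes (horizontal axis, separate scale per tissue) with bars of 1 SE for SBR vehicle minus sham vehicle (blue) and SBR WUSTL0717 minus SBR vehicle (orange), the 7 members above the dotted line and the other 7 carboxylesterases in the table below it. Filled points were called by limma; in the gut only Ces2b in treated duodenum is filled, while in liver the called resection differences run from -1.64 for Ces3b to 0.96 for Ces2c.

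Resection with vehicle was then set against sham. Both this contrast and the drug contrast use the SBR vehicle libraries, so a library that is low there lowers one and raises the other. In duodenum no member was called, and limma called 0 of 15093 genes (0%), with 2426 at an unadjusted p under 0.05 and 1 of the 6 members among them. The median over all genes was -0.36 in this contrast, and 0.04 once each library was centred on its median. Centring gave 95 calls over all genes, 91 of them higher, and quantile normalization gave 34, with no member among them under either. Ces1f was 5.99, 6.49 and 5.28 in sham against 6.73 to 7.29 after SBR, groups apart, a difference of 1.15 ± 0.41 (adjusted p = 0.274) that became 1.55 after centring. Ces1d was 4.67, 4.72 and 4.80 in sham, above all SBR vehicle libraries, with a difference of -0.99 ± 0.53 (adjusted p = 0.355) and -0.59 after centring. Without SBR vehicle replicate 3, at 2.43, the Ces1d difference was -0.56. The other tested members ran from -0.42 for Ces2b to 1.14 for Ces2e. Without duodenum sham replicate 1 Ces2e was 0.62 and without sham replicate 2 it was 1.85, and library weights gave 0.38. Ces2b was -0.16 without sham replicate 2 and -0.02 after centring.

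In ileum every SBR vehicle library was above every sham library for Ces2c, although it did not pass limma's test. Ces2c was 4.11, 4.23 and 4.15 in sham against 5.11 to 6.04 after SBR, a difference of 1.36 ± 0.28 (adjusted p = 0.0797). Ces2b was 0.52, 0.56 and 0.30 against 0.93 to 1.41, a difference of 0.77 ± 0.22 (adjusted p = 0.221), but it passed the filter on means only through the treated libraries, which are not part of this contrast, so its values are a description. The exact permutation test gave p = 0.0286 for Ces2c, the smallest possible with 4 against 3 libraries. The 4 other tested members differed by 0.01 (Ces1g) to 1.60 (Ces1d) with groups that overlapped. No member was called, against 0.349% of 15772 genes, and the two-sample test called none. Of the 5 members other than Ces2b, 1 (Ces2c) had an unadjusted p under 0.05, as did 1334 of the 15772 genes.

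The treated resected mice were also compared with sham mice, a contrast that holds both the surgery and the drug. In ileum Ces2b rose by 1.78 ± 0.22 and Ces2c by 2.31 ± 0.28 (adjusted p = 0.00266 for both), or 3.43-fold and 4.96-fold. These 2 calls held in every alternative that tested the gene, with adjusted p up to 0.0411, although a pseudocount of 5 reduced Ces2b to 0.70. Ces2e differed by 1.58 ± 0.39 (adjusted p = 0.0623), Ces1d by 3.03 ± 0.90 (0.123), Ces1f by 1.28 ± 0.57 (0.338) and Ces1g by 0.79 ± 0.47 (0.520). Without treated replicate 2 the Ces1 differences were 2.04 for Ces1d, 0.88 for Ces1f and 0.33 for Ces1g. In ileum 2.17% of genes were called. Since Ces2b passed the filter through its treated libraries, its call is a description here too, and only that of Ces2c, among the 5 other tested members, can be read against that share.

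In duodenum Ces2b rose by 1.58 ± 0.32 (limma adjusted p = 0.0472), Ces2c by 2.37 ± 0.44 (0.0300) and Ces1f by 2.40 ± 0.41 (0.0189), 3 of 6 tested members where 0.802% of genes were called. Ces2e differed by 2.51 ± 0.55 (adjusted p = 0.0649, and 0.0135 after centring). Ces1d differed by 1.63 ± 0.53 (0.203) and Ces1g by 1.70 ± 0.68 (0.253), or 1.05 without sham replicate 1. The duodenal calls were lost when single libraries were left out: Ces2b with any of the 7, Ces2c without sham replicate 1 or 3 or treated replicate 1, 3 or 4, and Ces1f without sham replicate 1 or 3 or treated replicate 3 or 4. All 3 calls were also lost with the replicate block (adjusted p of 0.213 for Ces2b, 0.177 for Ces2c and 0.124 for Ces1f), the two-sample test (0.146, 0.142 and 0.122) and the compared groups alone (0.105, 0.0968 and 0.0762). Sham replicate 2 was the highest sham library for Ces2a, Ces2b, Ces2c, Ces2e, Ces1f and Ces1g in duodenum.

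Sham mice gave the regional level of each member without resection or drug. The choice of Ces2a did not use the sham values, but the fit took its spread from all 6 gut groups, the treated ones included. The adjusted p of Ces2a between regions is therefore given as a description. The sources used here do not say whether duodenum and ileum came from the same mice, and the fit treats all libraries as independent, so the p-values between regions hold only if they did not share animals. With replicate number as a block the count of called members was 5 as well. That block gives same-numbered libraries of all 6 gut groups a shared term, so it does not model a mouse that gave both regions. Of 7 members 5 were called, 4 higher and 1 (Ces2a) lower in duodenum, where 14.6% of 15923 genes were called. Ces2c was 6.08, 7.53 and 6.45 in duodenum against 4.11, 4.23 and 4.15 in ileum, 2.52 ± 0.39 higher (limma adjusted p = 9.84e-05). Ces2b was 1.63, 2.60 and 1.97 against 0.52, 0.56 and 0.30, 1.61 ± 0.27 higher (adjusted p = 0.00024), or 0.62 with a pseudocount of 5. Ces1f at 5.28 to 6.49 against 3.27 to 4.08 was 2.23 ± 0.54 higher (adjusted p = 0.00753), and Ces1g at 3.41 to 5.66 against 2.51 to 2.93 was 2.00 ± 0.64 higher (0.0401). The Ces1g call was lost without any of 5 of the 6 sham libraries.

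Ces2a went the other way and was lower in sham duodenum by 1.55 ± 0.39, 2.93-fold (adjusted p = 0.0097). Its groups stood apart, with the highest duodenal library at 4.59 and the lowest ileal one at 5.32. The call was lost without duodenum sham replicate 1 (-1.18, adjusted p = 0.0721) and after centring each library on its median (-1.10, adjusted p = 0.0661). The median over all genes was -0.52 here, and centring turned the split of calls from 610 higher and 1721 lower to 1177 and 843. Ces2e (-0.98 ± 0.52, adjusted p = 0.202) and Ces1d (0.95 ± 0.83, 0.435) did not pass. Ces2e was called without duodenum sham replicate 2 (-1.69, adjusted p = 0.0265) and was -0.46 without duodenum sham replicate 1, and Ces1d ran from 0.47 without ileum sham replicate 2 to 1.5 without ileum sham replicate 3. An exact permutation test of 3 against 3 libraries cannot go below p = 0.1. Acinar markers were higher in duodenum in 9 of 9 genes, with a median difference of 6.43, and their part in these regional differences was not tested.

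The drug effects of the 2 regions were set against each other directly. The effect on Ces2a was 1.28 ± 0.48 log2 units larger in duodenum, given as a value with no test, and 0.61 with quantile normalization. None of the 6 tested members was called by limma, against 0.0251% of 15923 genes, and 1 (Ces2b, 0.99 ± 0.33, adjusted p = 1) had an unadjusted p under 0.05. Of all 15923 genes, 530 had an unadjusted p under 0.05 in this contrast. The other tested members differed by 0.86 for Ces2c, 0.12 for Ces2e, 1.19 for Ces1d, 0.98 for Ces1f and 0.91 for Ces1g, with SE of 0.47 to 1.01. Quantile normalization gave 0.32, -0.56, 0.77, 0.49 and 0.53 in that order. Without ileum SBR WUSTL0717 replicate 2, the library with the high hepatocyte markers, Ces1d differed by 2.18, Ces1f by 1.37 and Ces1g by 1.37, none called. Other single omissions lowered them to 0.67 for Ces1d (without ileum treated replicate 3), 0.48 for Ces1f (without ileum SBR vehicle replicate 4) and 0.47 for Ces1g (without duodenum SBR vehicle replicate 2). A difference between the regions was therefore not shown for any tested member, which does not show that the effects were equal.

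In liver the members split after resection. Ces1f was 7.04, 7.09, 7.33, 7.25 and 7.01 in sham and ran from 5.59 (median 6.47) to 6.65 in the 8 SBR vehicle libraries, below every sham library. It fell by 0.80 ± 0.14 log2 units (limma adjusted p = 0.000171, exact p = 0.000777, the smallest possible). Ces2a was 7.12, 6.66, 7.00, 7.44 and 7.26 in sham against 6.17 to 6.70 (median 6.40), and fell by 0.67 ± 0.14 (adjusted p = 0.000749, exact p = 0.00233). Its ranges met at 1 sham library, replicate 2. Ces1d, the triacylglycerol hydrolase, was 6.26, 6.40, 6.38, 6.62 and 6.46 against 5.32 to 6.33 (median 5.79) and fell by 0.60 ± 0.20 (adjusted p = 0.0191, exact p = 0.00777).

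Ces2c moved the opposite way. It was 7.24, 6.33, 6.25, 6.70 and 6.82 in sham against 7.27 to 8.01 (median 7.64) after SBR, groups just apart, and rose by 0.96 ± 0.20 (limma adjusted p = 0.000791, exact p = 0.000777). Ces1g was 4.65, 4.12, 4.46, 5.15 and 4.84 against 4.68 to 5.54 (median 5.18) and rose by 0.49 ± 0.17 (adjusted p = 0.0249, exact p = 0.0287). The Ces1g call was lost without sham replicate 2 (0.35, adjusted p = 0.103) or 3 (0.44, 0.0619), with quantile normalization (0.25, 0.0845), with the replicate block (0.38, 0.0725) and in the unmoderated two-sample test (adjusted p = 0.0704). Ces2b (-0.26 ± 0.13, adjusted p = 0.110) and Ces2e (0.22 ± 0.15, 0.249) did not pass, and Ces2e turned to -0.09 when libraries were centred.

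These 5 calls of 7 members stand beside calls for 41.9% of 15901 liver genes. The median over all liver genes was 0.25 in this contrast. Centring each library on its median turned the split of all calls from 5953 higher and 710 lower to 3234 and 4594. On that scale Ces1f was lower by 1.11, Ces2a by 0.98, Ces1d by 0.91 and Ces2b by 0.57 (adjusted p = 0.00143). Ces2c stayed higher by 0.65 (adjusted p = 0.00504), and Ces1g at 0.18 was no longer called (adjusted p = 0.239). Calls that held on both scales were lower for Ces1f, Ces2a and Ces1d, and higher for Ces2c.

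**Figure D3:**
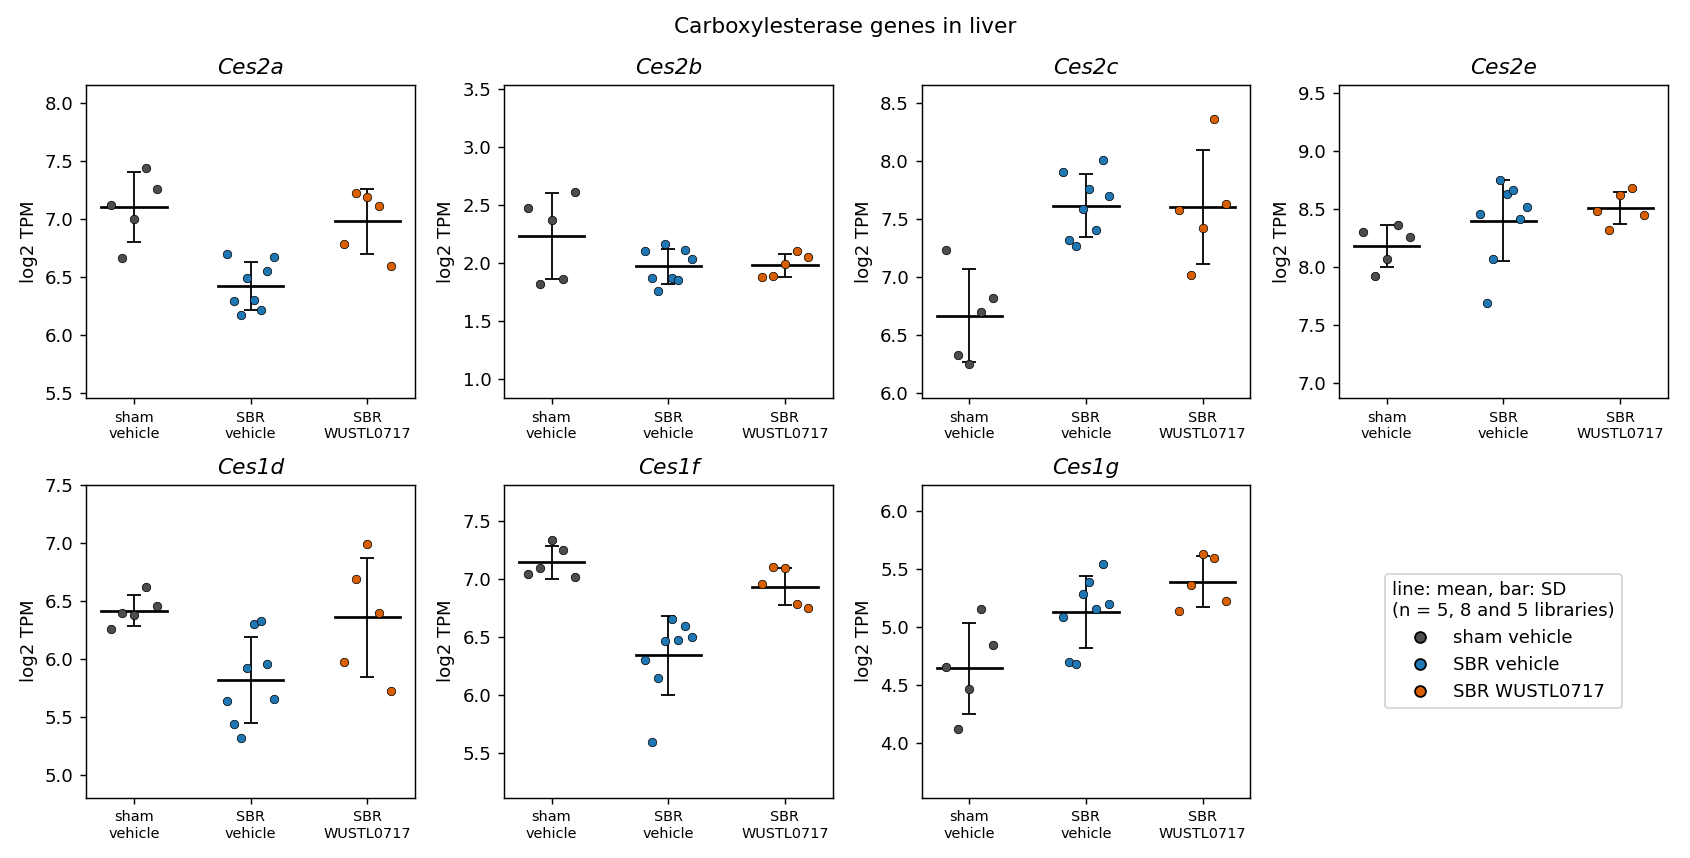
Log2 TPM of each member in liver (vertical axis, a separate scale per gene) by group, with 1 point per library, a line at the mean and a bar of 1 SD (n = 5, 8 and 5). SBR vehicle libraries lie below all others for Ces1f (5.59 to 6.65), for Ces2a (6.17 to 6.70) they have the lowest mean but meet both other groups, and both resected groups lie above most sham libraries for Ces2c.

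Cell type markers moved in the same liver contrast. Of 10 hepatocyte markers 6 were lower and 1 higher after resection, and their average ran from 7.00 to 7.51 in sham, 6.00 to 6.88 in SBR vehicle and 6.93 to 7.35 in treated libraries. All 7 cholangiocyte markers were higher (3.29 to 4.06, 5.55 to 6.39 and 4.55 to 5.85), as were 7 of 8 fibroblast and stellate markers (3.73 to 4.21, 5.30 to 6.14 and 4.72 to 5.62) and 4 of 7 leukocyte markers, in a contrast where 41.9% of all genes were called. The library with the lowest hepatocyte average, SBR vehicle replicate 2 at 6.00, also had the lowest Ces1f (5.59) and Ces2e (7.69). The part of these markers in the carboxylesterase differences was not tested. Without the acinar-rich SBR vehicle replicate 7 the 5 calls remained 5, at -0.84 for Ces1f, -0.69 for Ces2a, -0.62 for Ces1d, 0.90 for Ces2c and 0.43 for Ces1g.

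**Figure D4:**
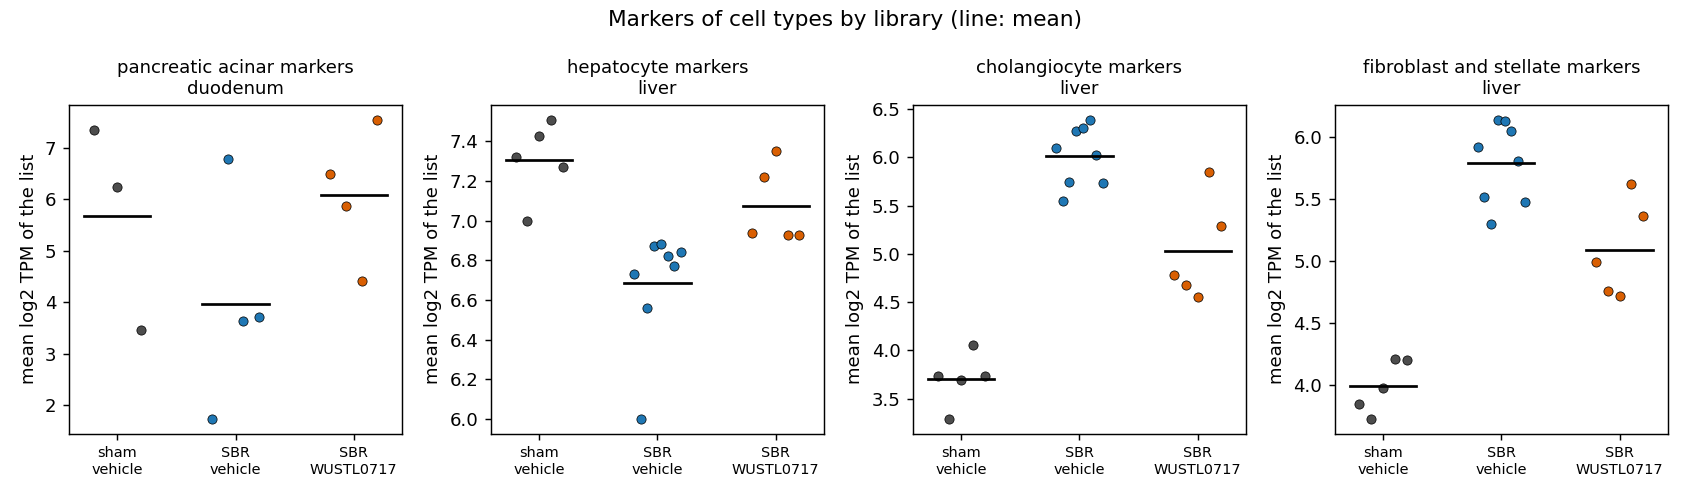
Mean log2 TPM of marker lists (vertical axis, a separate scale per panel) with 1 point per library and a line at the group mean, for pancreatic acinar markers in duodenum and for hepatocyte, cholangiocyte, and fibroblast and stellate markers in liver. Duodenal acinar levels scatter from 1.74 to 7.54 across groups, and the hepatocyte average of SBR vehicle livers (6.00 to 6.88) lies below that of the sham livers.

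WUSTL0717 was set against vehicle in the resected livers, where 2 of 7 members were called against 4.1% of genes. Ces1f was 6.95, 7.10, 7.09, 6.78 and 6.75 in treated liver, above all SBR vehicle libraries, and rose by 0.59 ± 0.14 (limma adjusted p = 0.0243, exact p = 0.00233). Ces2a was 6.78, 7.22, 7.19, 7.11 and 6.59 and rose by 0.56 ± 0.14 (adjusted p = 0.0303, exact p = 0.00311). Ces1d at 5.98, 6.69, 6.99, 6.40 and 5.73 differed by 0.54 ± 0.20 (adjusted p = 0.145, and 0.0430 after centring). The remaining members differed by -0.02 for Ces2c, 0.01 for Ces2b, 0.11 for Ces2e and 0.26 for Ces1g, none called. Centring turned the calls over all genes from 229 higher and 423 lower to 1837 and 1294. The unmoderated two-sample test (adjusted p = 0.135 for Ces1f and 0.114 for Ces2a) and a fit of the compared groups alone (0.0728 and 0.0554) ended both calls. Leaving out treated replicate 1, 2 or 3 ended the Ces1f and Ces2a calls (adjusted p of 0.0573 to 0.115). That of Ces2a also ended without SBR vehicle replicate 5 or 6 (0.0504 and 0.0577), with library weights (0.35, adjusted p = 0.0534) and with the replicate block (0.59, adjusted p = 0.0816). Of the cholangiocyte markers 6 of 7 and of the fibroblast and stellate markers 5 of 8 were lower in treated livers, beside 1 hepatocyte marker that was higher; their part was not tested.

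Against sham, treated livers had 2 of 7 members called where 28.8% of genes were: Ces2c rose by 0.94 ± 0.22 (limma adjusted p = 0.00537) and Ces1g by 0.75 ± 0.18 (0.0073), or 0.45 after centring. Ces2a (-0.12 ± 0.15), Ces1d (-0.07 ± 0.22) and Ces1f (-0.21 ± 0.16) did not pass. On the centred scale, however, Ces1f was lower by 0.51 (adjusted p = 0.00329) and Ces2b by 0.55 (0.0117). With library weights Ces2a differed by -0.31 (adjusted p = 0.0461). The hepatic drug difference of Ces2a was 0.56 log2 units. Its gut differences, 3.83 in duodenum and 2.54 in ileum, are those it was chosen by and lie on a scale adjusted separately. The sizes in gut and liver are therefore not compared.

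The 7 carboxylesterases outside the list were Ces1b, Ces1c, Ces1e, Ces2d-ps, Ces2g, Ces3a and Ces3b. In the drug contrast of the gut none was called, where 0.258% of duodenal and 0.0697% of ileal genes were. In duodenum the treated libraries stood apart for Ces3a (1.60 ± 0.63, limma adjusted p = 0.768), Ces1e (1.57 ± 0.37, 0.167) and the pseudogene Ces2d-ps (1.00 ± 0.32, 0.523). Treated libraries stood above all SBR vehicle ones for 2.11% of duodenal genes tested. Ces1b differed by 1.18, Ces2g by 0.46, Ces1c by -0.05 and Ces3b by -0.07. In ileum Ces1c differed by -1.06 ± 0.37 (limma adjusted p = 0.582). Treated libraries stood above all SBR vehicle ones for Ces2d-ps (0.50 ± 0.21, limma adjusted p = 0.7), against 2.56% of ileal genes tested. Ces2d-ps, which shares stretches of sequence with Ces2c, was 1.21 ± 0.23 higher in treated than in sham mice (0.022), where 2.17% of genes were called. Between sham regions Ces2g was 3.60 ± 0.28 higher in duodenum (adjusted p = 6.75e-09) and Ces1c 2.90 ± 0.39 lower (2.48e-05). Ces1e (2.17), Ces3a (2.14) and Ces2d-ps (1.14) were called higher too, in a contrast where 14.6% of genes were called.

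In liver, on the deposited scale, the Ces3 genes had the largest differences of the 14 carboxylesterases in the resection and drug contrasts. In treated against sham mice they did not. After resection Ces3b fell by 1.64 ± 0.26 (limma adjusted p = 6.94e-05), Ces3a by 1.27 ± 0.15 (3e-06), Ces1e by 0.65 ± 0.15 (0.0016) and Ces1b by 0.35 ± 0.13 (0.0392), while Ces2d-ps rose by 0.57 ± 0.17 (0.0131, and 0.128 after centring). Ces3a ran from 6.07 to 6.23 in sham, 4.31 to 5.45 in SBR vehicle and 5.46 to 5.93 in treated livers, with no overlap between the 3 groups. Under the drug Ces3b rose by 0.97 ± 0.26 (0.0451), Ces3a by 0.88 ± 0.15 (0.00689) and Ces1e by 0.63 ± 0.15 (0.022). Over all 14 carboxylesterases, 7 fell and 3 rose after resection on the deposited scale, where 41.9% of all genes were called, and 5 rose under the drug, where 4.1% were. On the centred scale the resection calls of Ces1g (adjusted p = 0.239) and Ces2d-ps were lost, and Ces2b was called lower (0.00143).

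Genes of related pathways were counted from lists written with earlier results known. Of 20 PXR and CAR pathway genes, 3 rose under the drug in duodenum, where 0.258% of all genes were called, the drug-metabolizing cytochromes Cyp2c29 (3.48 ± 0.37, limma adjusted p = 0.00306), Cyp2c55 (3.01 ± 0.47, 0.0213) and Cyp2b10 (2.22 ± 0.38, 0.0328, and 0.066 after centring), with a list median of 0.95 against 0.04 for all genes. None of the 20 was called for the drug in ileum, where 0.0697% of all genes were called. In treated against sham mice 7 rose in duodenum, led by Cyp2c29 (3.42), Por (3.05) and Cyp2b10 (3.11), and 2 in ileum, Por (2.26) and Abcb1a (2.04), where 0.802% and 2.17% of all genes were called. In liver 9 rose and 3 fell after resection, where 41.9% of all genes were called and the list median of 0.26 stood beside 0.25 for all genes, led by the glutathione transferases Gsta1 (3.94) and Gstm3 (3.82) and by Cyp3a11 (1.61), and Cyp2b10 (1.33) and Cyp2c29 (0.63) rose under the drug, where 4.1% of all genes were called.

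Of 10 core LXR targets, 2 rose in treated duodenum against SBR vehicle, where 0.258% of all genes were called, the desaturase Scd1 (6.34 ± 0.61, limma adjusted p = 0.00306) and the sterol exporter Abca1 (3.55 ± 0.50, 0.0136). In treated ileum 5 rose, where 0.0697% of all genes were called, led by Abca1 (2.79 ± 0.34), Scd1 (3.09 ± 0.40) and Abcg5 (2.68 ± 0.36). None was called for the drug in liver, where 4.1% of all genes were called and the list median was 0.21 against 0.02.

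Of 16 other hydrolases of lipid and drug esters, calls in the surgery and drug contrasts of the gut came only in ileum. Aadac, an arylacetamide deacetylase of the same compartment, fell by 2.27 ± 0.36 in ileum after resection (limma adjusted p = 0.0181), where 0.349% of all genes were called. Abhd5 (1.87) and Nceh1 (2.19) were higher in treated than in sham ileum, where 2.17% of all genes were called. None was called in the surgery and drug contrasts of duodenum, where at most 0.802% of all genes were. Between sham regions 5 were higher and 1 lower in duodenum, led by Lipa (2.83), Bche (2.38) and Aadac (2.05), where 14.6% of genes were called. In liver 4 rose and 3 fell after resection, beside 41.9% of all genes and with a list median of 0.09 against 0.25, among them Lpl (1.80), Nceh1 (0.70) and Aadac (-0.91), and Mgll (0.52) and Lipc (0.41) rose under the drug, where 4.1% of all genes were called. Of 12 genes of triglyceride re-esterification and lipoprotein assembly, none was called for the drug in either gut region. Over all genes 0.258% were called in duodenum and 0.0697% in ileum. Against sham, 4 rose in treated duodenum, including the lipid droplet coat gene Plin2 (2.77), Fabp2 (3.45) and Sar1b (3.17), and Plin2 alone in treated ileum (2.08), where 0.802% and 2.17% of all genes were called. In liver 4 rose and 1 fell after resection, again beside 41.9% of all genes and with a list median of 0.10 against 0.25, with Apoa4 (2.62) and Plin2 (1.08) higher and the triglyceride synthase Dgat2 (-0.69) lower.

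Over the 22 gut libraries with the mean of each region subtracted, the 3 of 8018 genes whose pattern was most like that of Ces2a were H2-Q10 (Pearson r = 0.953), Scd1 (0.939) and Cyp4a10 (0.911). Among the members r with Ces2a was 0.884 for Ces2c, 0.854 for Ces2e, 0.713 for Ces1g, 0.692 for Ces1f and 0.657 for Ces1d, and Ces2b was below the level needed. All these points share the treatment groups, so they describe the libraries and carry no test. Over the 18 liver libraries and 9680 genes, Ces1d was most like Acsl1 (0.903) and Dmac2 (0.887), Ces1f most like Ugt3a2 (0.964), Rdh7 (0.963) and Pecr (0.961), and Ces1g most like Ppcdc (0.938), Tom1 (0.938) and Mpc1 (0.935). These liver libraries too share the treatment groups, whose differences are left in, so r restates those differences in part and carries no test. Among the liver members r was 0.762 for Ces2a with Ces1f, 0.695 for Ces2a with Ces1d and 0.795 for Ces1d with Ces1f. Ces2c had r of -0.303 with Ces2a and -0.472 with Ces1f, and 0.734 with Ces1g.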

How the data were processed

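The authors extracted total RNA, removed ribosomal RNA, aligned reads to GRCm38 with STAR and counted uniquely aligned, unambiguous reads with featureCounts. They calculated trimmed mean of M-values size factors from the counts, and separately took TPM values to log2 and applied ComBat, with intestine and liver as batches, to give the deposited values. Whether those factors entered the TPM is not given in the sources used here. The deposited log2 TPM table holds no counts, so depth is unknown and ComBat may have rescaled differences. ComBat's batch is the tissue, so gut and liver levels cannot be compared.

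The 7 members and all lists were chosen with earlier results of these data known. limma 3.58.1 (R 4.3.3, variance trend) fitted the 3 groups of a tissue together, or the 6 gut groups for regional contrasts, on genes whose average log2 TPM reached 1. P-values were Benjamini-Hochberg adjusted over all genes and a call was an adjusted p under 0.05. Exact two-sided permutation tests were run over libraries. P-values measure the spread between libraries, which carry separate labels but no mouse identifier. Fitting was tested on simulated data. Named genes were the members, the other carboxylesterases in the table, up to 3 called genes per list and comparison by smallest p, and the 3 genes most like Ces2a in gut and those most like each Ces1 member in liver, of which 1 is not reported here. Alternatives covered the filter, pseudocount, scaling, variance trend, library weights, replicate block, a two-sample test and leaving out each library. Sequences were handled with Biopython 1.88. The planned protein alignment was not run, and coding sequences were compared instead.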

Additional observations from a re-analysis of the deposited data

Results flagged for a closer look

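In each of 49 sets of values, 1 member in 1 group of 4, 5 or 8 libraries, the highest and lowest library was compared with the rest; chance alone marks about 1 group in 20. Ces2e in duodenum SBR WUSTL0717 replicate 3 was 9.32, with the others at 8.39 to 8.50, a gap of 0.879 of the group's range. Ces1d in duodenum SBR vehicle replicate 3 was 2.43, with the others at 4.03 to 4.28, a gap of 0.867 of the range. Without that library the Ces1d difference after resection went from -0.99 to -0.56. The resection values of Ces1f lay on opposite sides of sham in 2 tissues: 1.15 log2 units in duodenum, which did not pass limma's test (adjusted p = 0.274), with every SBR vehicle library above every sham library, and -0.80 in liver (adjusted p = 0.000171), with every SBR vehicle library below every sham library. A difference between the tissues was not tested, since they were adjusted as separate batches.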

How the results depend on the processing

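Across the alternatives 174 counts of called members stayed within 1.5 times the reported count and 37 did not. Of values for single members, 1326 kept direction and call, 63 lost a call, 35 gained one and 39 changed sign. Quantile normalization moved 3 values of Ces2a, to 3.42 for the drug in duodenum, 2.13 for treated against sham ileum and 0.61 for the regional contrast. Of the 6 tested members, WUSTL0717 against SBR vehicle in duodenum gave 1 call, and 2 with a pseudocount of 5, without the variance trend or with library weights. It gave 0 with the replicate block, the two-sample test, the fit of the compared groups alone or the acinar covariate (added after seeing the data), and 0 to 1 when single libraries were left out. In treated against sham duodenum, 3 calls became 5 with library weights and 0 with the replicate block, the two-sample test or the compared groups alone, and 0 to 3 with single libraries left out. Ileum SBR against sham went from 0 to 1 with quantile normalization or library weights, and treated against sham ileum from 2 to 4 with library weights. In liver, the 2 drug calls became 1 with library weights or the replicate block, 0 with the two-sample test or the compared groups alone, and 0 to 2 with single libraries left out. The 2 calls of treated against sham liver became 4 after centring or quantile normalization and 5 with library weights. The causes were not tested, apart from fewer libraries in the fits of the compared groups and of single omissions.

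Values near 0 changed sign. For Ces1g after SBR, 0.01 in duodenum became -0.46 with library weights, -0.22 with the replicate block, -0.25 with the acinar covariate and -0.64 to 0.48 with single libraries left out, and 0.01 in ileum became -0.06 after centring, -0.05 after quantile normalization, -0.18 with library weights, -0.06 with the replicate block and -0.18 to 0.18 with single libraries left out. Ces1f in treated ileum became -0.05 with library weights and -0.12 to 0.77 with single libraries left out. Ces2e became -0.09 after centring in liver after SBR, and in treated liver -0.03 after quantile normalization and -0.04 with library weights. In treated liver Ces2b became -0.04 with library weights and Ces2c 0.03 with the replicate block, and with single libraries left out they ran from -0.02 to 0.04 and from -0.21 to 0.13. Ces1d in treated against sham liver ran from -0.23 to 0.09 with single libraries left out. The regional difference of Ces2e became -0.56 after quantile normalization and -0.17 to 0.34 with single libraries left out. Other values moved by over 1.5 times with no change of sign. Over all alternatives and omissions, resection gave 0.03 to 0.80 for Ces2a, 0.15 to 0.98 for Ces2c and 0.75 to 1.55 for Ces1f in duodenum, 0.04 to 0.55 for Ces2e and as low as 0.51 for Ces1f in ileum, and -0.91 to -0.46 for Ces1d in liver, while the drug gave 0.19 to 0.69 for Ces1d in liver. A filter at a mean of 3 left Ces2b untested in all tissues.

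Replicate numbers were compared between groups of the same tissue. Same-numbered libraries correlated above 0.1 in 3 of 10 pairs in duodenum, 1 of 10 in ileum and 2 of 15 in liver. Those groups hold different mice, so the check cannot show whether duodenum and ileum came from the same animals. Without depth, a low value cannot be given a counting error.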
